A study of Homo sapiens with 3 samples.

Results

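RAB genes encode the small GTPases that give each membrane compartment of a cell its trafficking identity. Feature rows whose symbol is RAB with a number and an optional letter were taken, without pseudogenes, antisense genes and the RAB3GAP and RAB11FIP partners, and kept at a mean of at least 1 UMI per 1000000 UMIs (CPM) over the 3 libraries. This gave 46 members out of 62 matching rows among 33694 features. Of the 16 rows under the floor, 2 (RAB3C and RAB41) had no UMI in any library. RAB3B with a mean of 1.09 CPM and RAB7B with 1.02 CPM lay just inside the floor, and RAB3A with 0.792 CPM and RAB15 with 0.648 CPM just outside it. By known site of action the members comprised 6 early endosome, 8 recycling endosome, 3 late endosome, 9 endoplasmic reticulum (ER) and Golgi, 9 secretory and plasma membrane, 2 lysosome-related organelle and 9 other RABs.

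The cells were BxPC-3, an established human pancreatic ductal adenocarcinoma line, compared as double-positive, single-positive and parental populations. EGFP-carrying and mCherry-carrying cells had been mixed in suspension so that some entered others (entosis, which forms cell-in-cell structures), and the sort then separated cells by signal. Double-positive cells held EGFP and mCherry, single-positive cells held either EGFP or mCherry alone, and parental cells were the reference for both. Each population had 1 library made with the 10x Chromium 5' kit, so the differences below have no replicates behind them and none was tested. The labels do not say whether single-positive cells of either colour were pooled, what culture the parental cells had, or whether the expansion that the protocol mentions came before or after the sort. Sort, culture and library therefore cannot be told apart.

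A RAB protein is anchored in membranes by prenyl groups and works as a switch: exchange factors load GTP, effectors bind the GTP form, GTPase-activating proteins end the signal, and GDP dissociation inhibitors (GDI) carry the GDP form through the cytosol. RAB5 marks early endosomes, RAB4 and RAB11 carry receptors back to the surface, and RAB7 takes cargo to late endosomes and lysosomes. In entosis the vacuole around the inner cell matures by fusing with endosomes and lysosomes.

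All members share a GTP-binding fold, and the codons of its switch II region show how close relatives differ. The coding sequence of the principal GENCODE 29 transcript (GRCh38) held the in-frame codons for tryptophan, aspartate, any residue, alanine and glycine exactly once in 42 of the 46 members. The windows below are those of the RAB11 group and of 3 members on which results turn, written in the transcript's direction, with those 5 codons and the next, the sixth, in capitals. They are reference sequence and were not read from these cells.
RAB11A: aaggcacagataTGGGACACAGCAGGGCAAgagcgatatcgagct
RAB11B: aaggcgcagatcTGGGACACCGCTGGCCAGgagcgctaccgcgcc
RAB25: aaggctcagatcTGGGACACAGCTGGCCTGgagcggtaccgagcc
RAB9A: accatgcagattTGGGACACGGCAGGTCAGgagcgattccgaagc
RAB38: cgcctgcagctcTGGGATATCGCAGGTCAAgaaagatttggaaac
RAB24: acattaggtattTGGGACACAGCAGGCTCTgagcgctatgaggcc
The RAB11A window is at chr15:65877472-65877516 (plus strand, exon 2), RAB11B at chr19:8400003-8400047 (plus strand, exon 2), RAB25 at chr1:156066051-156066095 (plus strand, exon 2) and RAB9A at chrX:13708915-13708959 (plus strand, exon 3). The RAB38 window runs over the intron between exons 1 and 2 (chr11:88149936-88175207, minus strand), and the RAB24 window over the intron between exons 2 and 3 (chr5:177302801-177303023, minus strand).

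The sixth codon encodes the glutamine that most RABs use to hydrolyse GTP. Among 41 windows compared, it was CAG in 26 and CAA in 12. The 3 others were CTG in RAB25, TCT in RAB24 and CGG in RAB20. Counted from 1 at the first capital base, with the RAB11A base first, RAB25 differed within the capitals by A12T, G15C, A17T and A18G, and RAB11B by A9C, A12T, G15C and A18G. RAB25, an epithelial member of the RAB11 group, is known for this altered switch. Coding identity was 60.4% between RAB11A and RAB25 and 72.5% between RAB11A and RAB11B, and the longest identical run in the 14 paralog pairs compared was 26 bases, between RAB5B and RAB5C.

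Cells were barcodes with at least 6500 UMIs, which gave 1940 double-positive, 1291 single-positive and 2409 parental cells holding 61156461, 50458262 and 63782337 UMIs. Median UMIs per cell were 29963.5 in double-positive, 38137 in single-positive and 23290 in parental cells. Cells under 0.5% mitochondrial UMIs made up 6.19% of double-positive, 21.8% of single-positive and 31.8% of parental cells, and G2M calls 39.2%, 46.3% and 38.9% in the same order. The 8 epithelial markers summed to 7674 CPM in double-positive, 8447 in single-positive and 8242 in parental cells, while fibroblast, endothelial, immune and erythroid markers each stayed under 6 CPM, with COL1A2 and PTPRC at 0. Cell barcodes shared between libraries numbered 1 to 6 for each pair, against 3.397 to 6.34 for independent draws. Intervals below are 95% intervals from the counts and cover counting error only.

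BxPC-3 cells expressed a broad RAB repertoire at close levels in the 3 populations. Summed over members, RAB UMIs made up 2601 CPM in double-positive, 2535 in single-positive and 2606 in parental cells. The 10 highest members held 60.5% of RAB UMIs in double-positive, 60.7% in single-positive and 61.2% in parental cells. RAB7A, RAB11A, RAB10, RAB5C and RAB22A, spanning late, recycling, secretory and early compartments, led in each library. CPM counts captured molecules and is not divided by transcript length, and 5' capture can differ between genes, so orders between members are on that scale only.

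**Figure D1:**
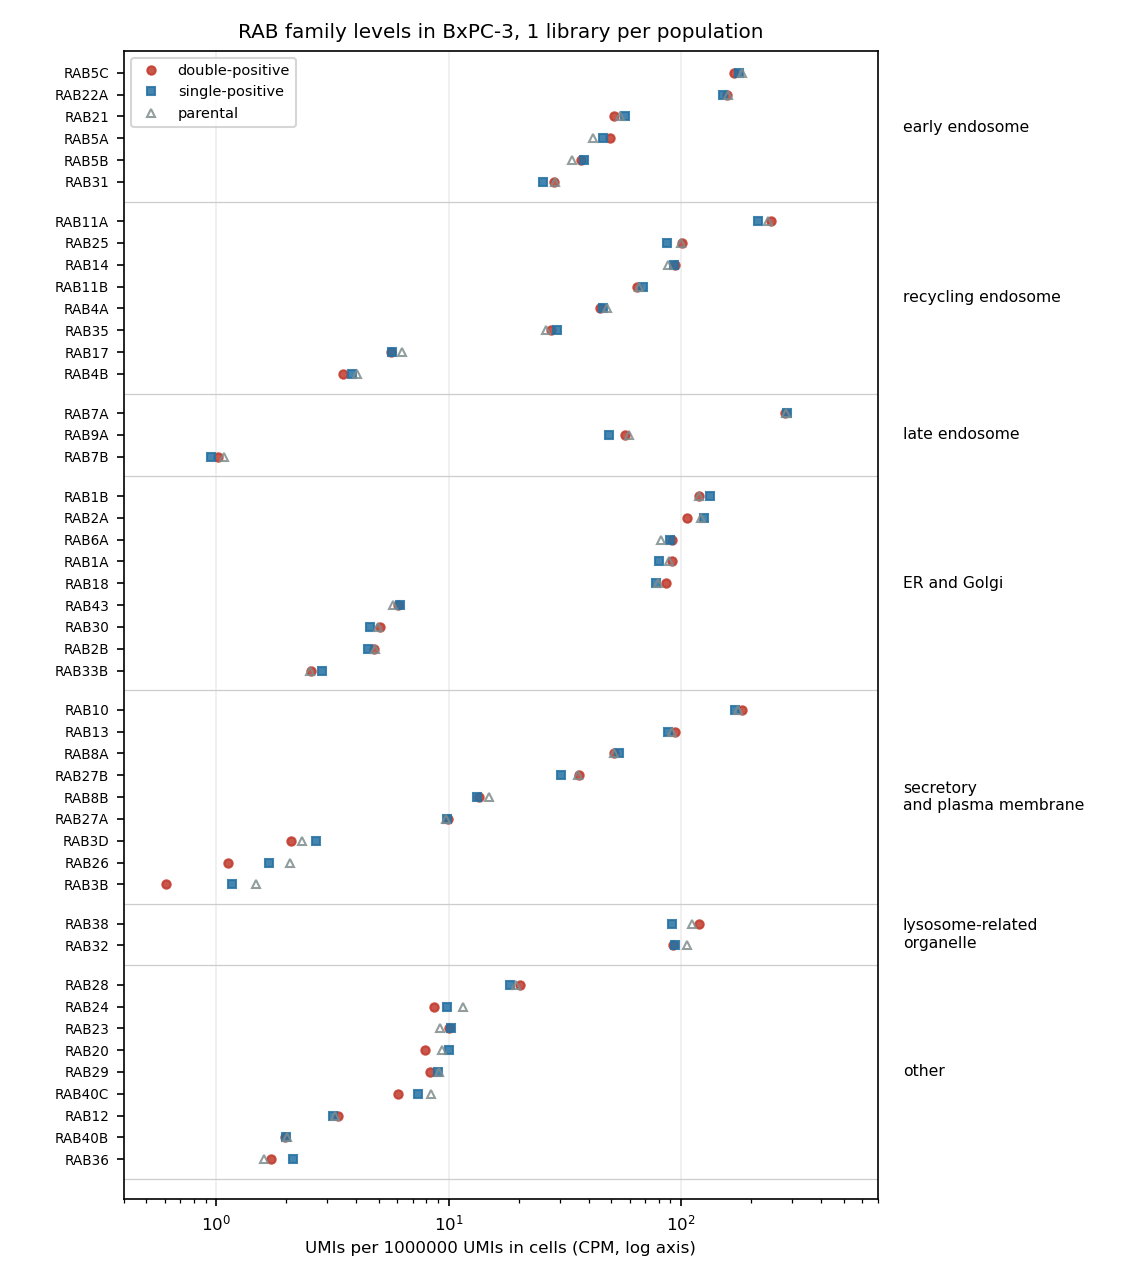
Level of each RAB member in CPM (log axis), grouped by compartment, with a circle for double-positive, a square for single-positive and a triangle for parental cells, 1 library each. Most symbols of a member lie on top of each other, from RAB7A at 279 to 287 CPM down to RAB7B near 1 CPM, while RAB3B and RAB26 at the low end and RAB38 at the high end are spread.

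By size, 36 of 46 members (78.3%) lay within 1.2-fold in all 3 comparisons, against 71.6% of the 12238 genes at or above 1 CPM. At 10 CPM and over it was 24 of 28 members (85.7%), against 82.9% of 7687 genes. In the shared depth range, 22974 to 32998 UMIs per cell, the members within 1.2-fold in all 3 comparisons numbered 25 (54.3%), against 48.5% of all genes, and with cells thinned at random to 6500 UMIs 24 (52.2%), against 53.2%. The 3 comparisons reuse the same 3 libraries, so their values below are not independent of each other.

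In double-positive against single-positive cells, 2 members were at least 1.2-fold higher, where the background over all genes was 4.73%, and 6 were at least 1.2-fold lower, where it was 10.1%. The higher ones were RAB38 and RAB27B, and the lower ones RAB20, RAB40C, RAB3B, RAB3D, RAB26 and RAB36. All 6 lower members averaged under 10 CPM, and at 10 CPM and over 2 of 28 members were apart in either direction, beside a background of 7.45%. The members' median log2 ratio was −0.02, beside −0.03 for all genes, and 21 of 46 lay above 0, beside 42.1% of all genes. These counts are near the background. In the shared depth range 19 members (41.3%) were at least 1.2-fold apart in either direction, against 36.5% of all genes.

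In single-positive against parental cells, 1 member (RAB36) was at least 1.2-fold higher, beside a background of 12.3%, and 4 (RAB9A, RAB38, RAB3B and RAB26) were at least 1.2-fold lower, beside 4.85%. The members' median log2 ratio was −0.04, beside 0.06 for all genes, and 18 of 46 lay above 0, beside 63.6% of all genes. At 10 CPM and over 2 of 28 members were apart, beside 10.3%. Among those 28, single-positive cells had the lowest of the 3 levels for 13 members (46.4%) and the highest for 8 (28.6%), where the shares over all genes at that level were 26.3% and 45.6%.

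In double-positive against parental cells, no member was at least 1.2-fold higher, beside a background of 6.61%, and 4 (RAB24, RAB40C, RAB3B and RAB26) were at least 1.2-fold lower, beside 6.22%. The median log2 ratio was 0.00 for members and 0.03 for all genes, and 23 of 46 members lay above 0, beside 57.3% of all genes. At 10 CPM and over it was 1 of 28 (RAB24), beside 6.15%. At a 1.5-fold limit, 1 member was apart in double-positive against single-positive (background 2.08%), 0 in single-positive against parental (background 1.62%) and 2 in double-positive against parental (background 1.68%). Those were RAB3B in the comparisons with double-positive cells and RAB26 against parental, both near the floor. RAB26 and RAB36 are named because they complete a count, after their values were seen.

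**Figure D2:**
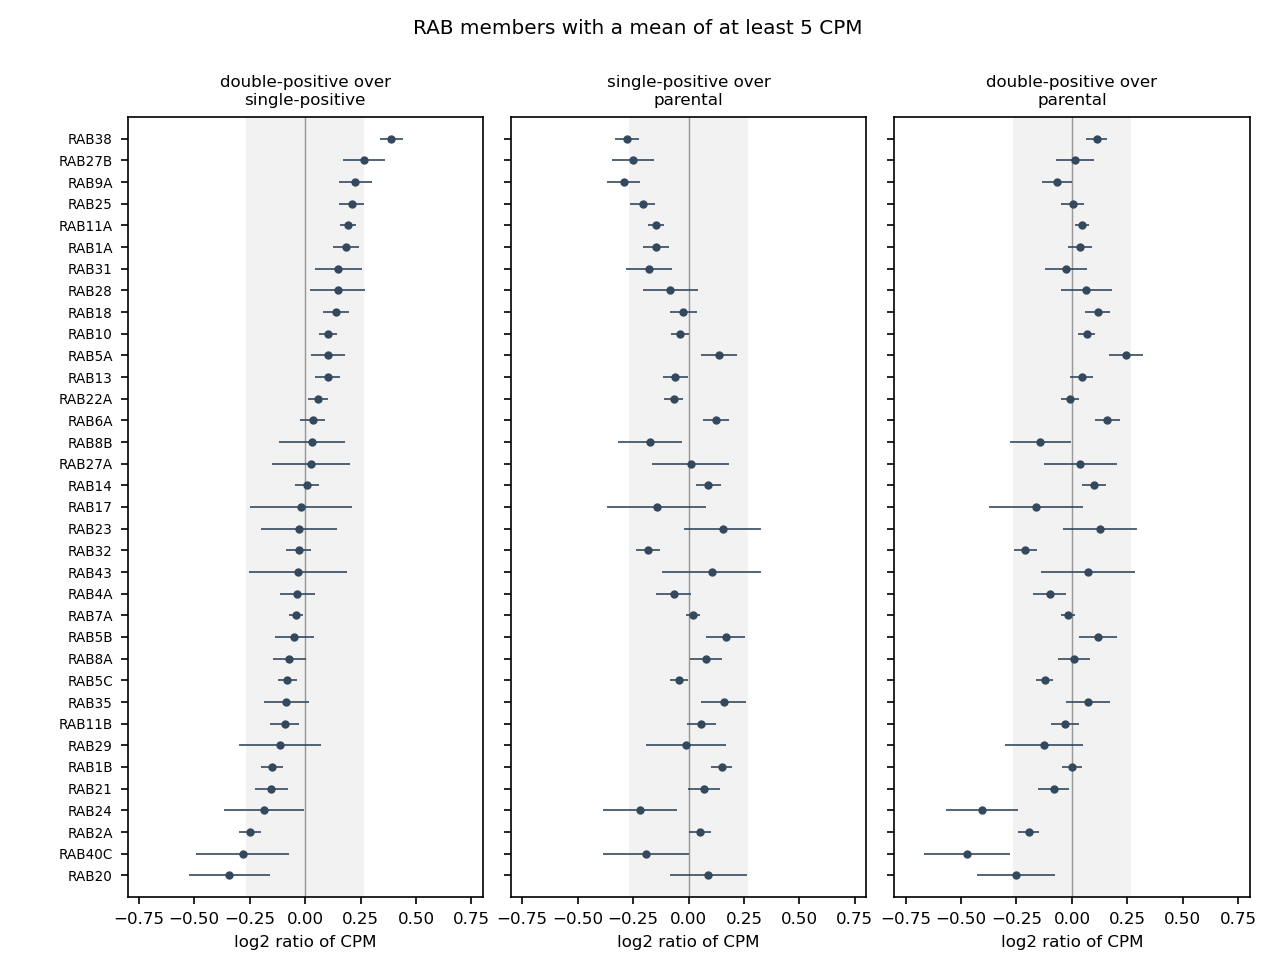
Log2 ratios of CPM for the members averaging 5 CPM or more, with 95% counting intervals, in double-positive over single-positive (left), single-positive over parental (middle) and double-positive over parental cells (right), and the band within 1.2-fold in grey. RAB38 stands at 0.39 on the left and −0.28 in the middle, and RAB40C and RAB24 are lowest on the right at −0.47 and −0.40.

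Over all cells, early endosome RABs were close in the 3 populations as a sum: 493 CPM in double-positive, 497 in single-positive and 501 in parental cells. The log2 ratio was −0.01 (−0.04 to 0.01) for double-positive over single-positive, −0.01 (−0.04 to 0.01) for single-positive over parental and −0.03 (−0.05 to −0.00) for double-positive over parental. With thinned cells the double-positive over single-positive ratio was −0.09 and the single-positive over parental ratio 0.04, and in the shared depth range they were −0.12 and 0.02. Within that sum the RAB5 isoforms, which recruit the tethers that fuse early endosomes, did not keep the same proportions. RAB5A had 49.5 CPM in double-positive, 46.0 in single-positive and 41.8 in parental cells, and its log2 ratio of 0.24 (0.17 to 0.32) was the highest among members at 5 CPM in double-positive over parental. RAB5C, the most abundant isoform, ran the other way with 168 CPM in double-positive, 178 in single-positive and 183 in parental cells, a double-positive over parental log2 ratio of −0.12 (−0.16 to −0.08). Over all cells, RAB5C made up 66.1%, 67.8% and 70.7% of RAB5 UMIs in double-positive, single-positive and parental cells, and the 3 exact binomial intervals did not overlap. Over the alternatives of cells and scaling, the double-positive over parental ratio of RAB5A ran between 0.13 (shared depth range) and 0.35 (G1 cells), and that of RAB5C reached −0.22 in the shared depth range. With thinned cells the order of the 3 populations was not kept. RAB5C had 1.05 UMIs per thinned cell in double-positive, 1.157 in single-positive and 1.154 in parental cells, and RAB5A 0.312, 0.325 and 0.264. The RAB5A ratio of double-positive over single-positive was −0.06 there.

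RAB5B had 37.0 CPM in double-positive, 38.2 in single-positive and 34.1 in parental cells, and its log2 ratio of 0.17 (0.08 to 0.26) was the highest at 5 CPM in single-positive over parental. That ratio ran between 0.04 in the shared depth range and 0.35 with cells thinned to 6500 UMIs. RAB22A, which acts between early and recycling endosomes, had 158 CPM in double-positive, 152 in single-positive and 159 in parental cells, and RAB21, linked to integrin uptake, had 51.6, 57.3 and 54.6 CPM in the same order. RAB31, a close relative of RAB22A, had 28.3 CPM in double-positive, 25.5 in single-positive and 28.8 in parental cells. None of the 6 early endosome members reached 1.2-fold in any comparison over all cells, and neither did 71.6% of all genes.

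Recycling endosome RABs showed, over all cells, the largest difference of the 3 endosomal sums between double-positive and single-positive cells, and it was small. The sum was 584 CPM in double-positive, 547 in single-positive and 575 in parental cells, with log2 ratios of 0.09 (0.07 to 0.12) for double-positive over single-positive, −0.07 (−0.09 to −0.05) for single-positive over parental and 0.02 (0.00 to 0.04) for double-positive over parental. Of the 8 members, 3 were higher and 5 lower in double-positive than in single-positive cells, where 42.1% of all genes were higher. Their median log2 ratio was −0.03, and RAB11A alone held 41.7% of the sum in double-positive cells. In the shared depth range, which held 142 single-positive cells, the double-positive over single-positive ratio of this sum was 0.01 and the early endosome sum differed most. RAB11A, the main recycling RAB, had 244 CPM in double-positive, 214 in single-positive and 236 in parental cells, a log2 ratio of 0.19 (0.16 to 0.23) for double-positive over single-positive. RAB25 had 100.5, 86.9 and 100.3 CPM in the same order, with 0.21 (0.15 to 0.27) for that ratio. Both were thus lowest in single-positive cells and close between the other populations. In the shared depth range the ratios of RAB11A and RAB25 were smaller, at 0.09 for each. Both stayed higher in double-positive cells within each of the 3 ranges of UMIs per cell given below. What part depth has in the recycling difference was not tested.

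RAB11B, the third member of that group, did not follow them: it had 64.5 CPM in double-positive, 68.7 in single-positive and 66.0 in parental cells. Its share of the group's UMIs was 15.8% in double-positive (15.3 to 16.2), 18.6% in single-positive (18.1 to 19.2) and 16.4% in parental cells (15.9 to 16.9). RAB14, which acts between Golgi and endosomes, had 93.7 CPM in double-positive, 93.2 in single-positive and 87.6 in parental cells. RAB4A, which drives fast recycling, had 44.9, 46.0 and 48.1 CPM, and RAB35, of the same short loop, 27.7, 29.4 and 26.3 CPM, in the same order. RAB4B and the epithelial RAB17 were low, at 3.52 and 5.64 CPM in double-positive, 3.82 and 5.71 in single-positive and 4.04 and 6.30 in parental cells. No recycling member reached 1.2-fold over all cells in any comparison, and neither did 71.6% of all genes.

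Late endosome RABs were level as a sum, with 337 CPM in double-positive, 336 in single-positive and 343 in parental cells, and a double-positive over single-positive log2 ratio of 0.00 (−0.03 to 0.03). RAB7A, which directs fusion with lysosomes, provided 82.8% of that sum in double-positive, 85.2% in single-positive and 82.3% in parental cells. Its level was 279 CPM in double-positive, 287 in single-positive and 282 in parental cells, and its log2 ratios lay between −0.04 and 0.02. RAB9A, which serves transport from late endosomes to the Golgi network, had 57.1 CPM in double-positive, 48.9 in single-positive and 59.8 in parental cells. It was lowest in single-positive cells, with log2 ratios of 0.23 (0.15 to 0.30) for double-positive over single-positive and −0.29 (−0.37 to −0.22) for single-positive over parental, the lowest ratio of that comparison at 5 CPM, and −0.22 within G1 cells. RAB7B stayed near 1 CPM in each library. The late sum here is over these 3 members. With wider compartment lists its ratios of double-positive over single-positive and single-positive over parental left their counting intervals, as given below.

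ER and Golgi RABs summed to 514 CPM in double-positive, 525 in single-positive and 510.2 in parental cells. The members of the RAB1 pair, which carries traffic from the ER to the Golgi, differed in opposite directions. RAB1A had 91.4 CPM in double-positive, 80.4 in single-positive and 89.1 in parental cells, and RAB1B had 120.0, 133 and 119.9 CPM in the same order. RAB1A was therefore 43.2% of the pair in double-positive (42.4 to 44.1), 37.7% in single-positive (36.8 to 38.6) and 42.6% in parental cells (41.8 to 43.5). RAB2A, which also acts in the early secretory pathway, had 106 CPM in double-positive, 126 in single-positive and 122 in parental cells, with log2 ratios of −0.25 (−0.30 to −0.20) and −0.20 (−0.24 to −0.15) for double-positive over single-positive and over parental. RAB6A, of Golgi transport, had 91.4 CPM in double-positive, 89.2 in single-positive and 81.8 in parental cells, and RAB18, found on ER and lipid droplets, had 86.3, 78.3 and 79.6 CPM in the same order.

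**Figure D3:**
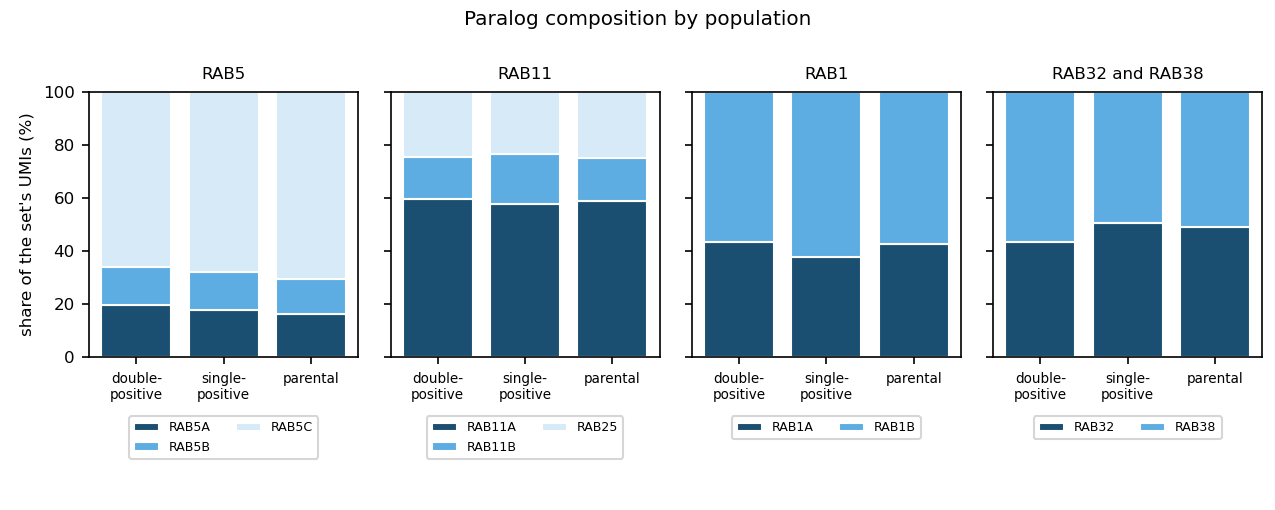
Share of UMIs (percent, from 0 to 100) held by each paralog of the RAB5, RAB11 and RAB1 groups and of the pair RAB32 and RAB38 in double-positive, single-positive and parental cells. RAB38 holds 56.5% of its pair in double-positive cells, against 49.3% in single-positive and 51.0% in parental cells, and RAB1A is smallest in single-positive cells at 37.7%.

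Secretory and plasma membrane RABs summed to 393 CPM in double-positive, 372 in single-positive and 385 in parental cells. RAB10, which serves exocytosis and basolateral recycling in epithelia, was the most abundant with 183 CPM in double-positive, 171 in single-positive and 175 in parental cells. RAB13, of tight junction transport, had 94.4, 87.95 and 91.6 CPM, and RAB8A, of polarised exocytosis, 51.5, 54.1 and 51.2 CPM, in the same order. These 3 stayed within 1.2-fold. RAB27B, which docks secretory vesicles and multivesicular endosomes at the plasma membrane, had 36.5 CPM in double-positive, 30.4 in single-positive and 36.1 in parental cells. Its log2 ratio of 0.27 (0.17 to 0.36) for double-positive over single-positive passed 1.2-fold by a narrow margin and was 0.20 when every cell was thinned to 6500 UMIs. RAB27A, its paralog, had 9.97, 9.79 and 9.72 CPM in that order, so RAB27B held 78.5%, 75.6% and 78.8% of the pair.

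The RAB3 group of regulated exocytosis was captured at very low levels. RAB3B had 37 UMIs (0.605 CPM) in double-positive, 59 (1.17 CPM) in single-positive and 95 (1.49 CPM) in parental cells, a double-positive over parental log2 ratio of −1.30 (−1.89 to −0.74). Its double-positive over single-positive ratio of −0.95 (−1.58 to −0.33) was 0.43 in the shared depth range. RAB3D had 2.09 CPM in double-positive, 2.70 in single-positive and 2.34 in parental cells, and its ratio of −0.36 for double-positive over single-positive became 0.41 when cells were thinned. The direction of RAB3B and RAB3D between the sorted populations thus differed between settings. Few UMIs remained in those settings. The shared depth range held 142 single-positive cells, and thinned RAB3D was seen in 1.75% of double-positive and 1.39% of single-positive cells. Counting error at such levels is wide, and why the ratios turned was not tested.

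RAB38 had the largest ratio of the members at 20 CPM or more. This GTPase, with RAB32, delivers cargo to lysosome-related organelles such as melanosomes and lung lamellar bodies. It had 119.8 CPM in double-positive, 91.4 in single-positive and 111 in parental cells, with log2 ratios of 0.39 (0.34 to 0.44) for double-positive over single-positive, −0.28 (−0.33 to −0.22) for single-positive over parental and 0.11 (0.06 to 0.16) for double-positive over parental. The level was lowest in single-positive cells and the Poisson intervals of the 3 libraries did not overlap. RAB32 differed from it: 92.1 CPM in double-positive, 93.9 in single-positive and 106 in parental cells, so that its log2 ratios over parental were −0.21 (−0.26 to −0.16) in double-positive and −0.18 (−0.24 to −0.13) in single-positive cells, where the shared depth range gave −0.10. As a pair they summed to 212 CPM in double-positive, 185 in single-positive and 217 in parental cells. Over 6 alternatives of cells and scaling, the RAB38 ratio of double-positive over single-positive lay between 0.37 and 0.45, while the single-positive over parental ratio was −0.26, inside 1.2-fold, without cells under 0.5% mitochondrial UMIs. The double-positive over parental ratio of RAB38 ran from 0.03 in the shared depth range to 0.17 in G1 cells.

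Among the other RABs, 3 of low level were lower in double-positive cells. RAB24, linked to autophagy, had 8.68 CPM in double-positive, 9.87 in single-positive and 11.5 in parental cells, a double-positive over parental log2 ratio of −0.40 (−0.57 to −0.24). RAB40C, a RAB with a SOCS box that recruits a ubiquitin ligase, had 6.08, 7.39 and 8.44 CPM in the same order, a ratio of −0.47 (−0.67 to −0.28). RAB20, known from phagosome maturation, had 7.88 CPM in double-positive, 9.99 in single-positive and 9.39 in parental cells, a double-positive over single-positive log2 ratio of −0.34 (−0.53 to −0.16). In these 3, double-positive cells had the lowest level, also in each alternative, where the ratio over parental reached −0.82 for RAB24 with thinned cells and −0.73 for RAB40C in G1 cells, and that over single-positive −0.53 for RAB20 with thinned cells. RAB23, a regulator of ciliary signalling, had 10.0 CPM in double-positive, 10.2 in single-positive and 9.17 in parental cells. In GENCODE 29 the exons of RAB24 share 44.8% of their bases with those of MXD3 on the same strand, which had 2.06 CPM in double-positive, 2.20 in single-positive and 1.96 in parental cells, and those of RAB4B 27.4% with RAB4B-EGLN2, at under 1 CPM in each library. RAB43 shares 79.3% with ISY1-RAB43, RAB5C 28.8% with CTD-2132N18.3, RAB4B 25.7% with MIA-RAB4B and RAB4A 19.6% with SPHAR, all 4 with 0 UMIs in the cells of the 3 libraries. Part of these members' molecules may have been left uncounted or given to the neighbour, so their levels are uncertain.

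The populations differed in depth per cell, so the members with the 5 highest ratios and the lowest ratio of double-positive over single-positive at 20 CPM were compared within 3 ranges of UMIs per cell. RAB38 in double-positive and single-positive cells was 102 and 74.8 CPM from 6500 to under 20000 UMIs, 118 and 91.4 CPM from 20000 to under 40000, and 127 and 93.2 CPM from 40000 on. The log2 ratios were 0.44 (0.23 to 0.66), 0.37 (0.28 to 0.46) and 0.44 (0.37 to 0.52), so RAB38 was higher in double-positive cells at each depth. Over the same ranges single-positive over parental was −0.45, −0.26 and −0.36. RAB11A showed ratios of 0.16, 0.17 and 0.13 and RAB25 of 0.27, 0.16 and 0.34 for double-positive over single-positive. RAB2A was lower in double-positive cells in the upper ranges (−0.28 and −0.19) and had −0.04 (−0.25 to 0.16) in the lowest.

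RAB27B and RAB9A did not keep their difference in the shallowest cells. RAB27B had 35.1 CPM in double-positive and 40.5 in single-positive cells there, a log2 ratio of −0.20 (−0.53 to 0.12), against 0.22 and 0.43 in the deeper ranges. RAB9A had 50.9 and 50.3 CPM there, 0.02 (−0.27 to 0.30), against 0.28 and 0.29. In that lowest range, 66.0% of the 297 single-positive cells were called G2M, against 27.7% of the 328 double-positive and 26.1% of the 885 parental cells. The part of this in the RAB values was not tested.

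**Figure D4:**
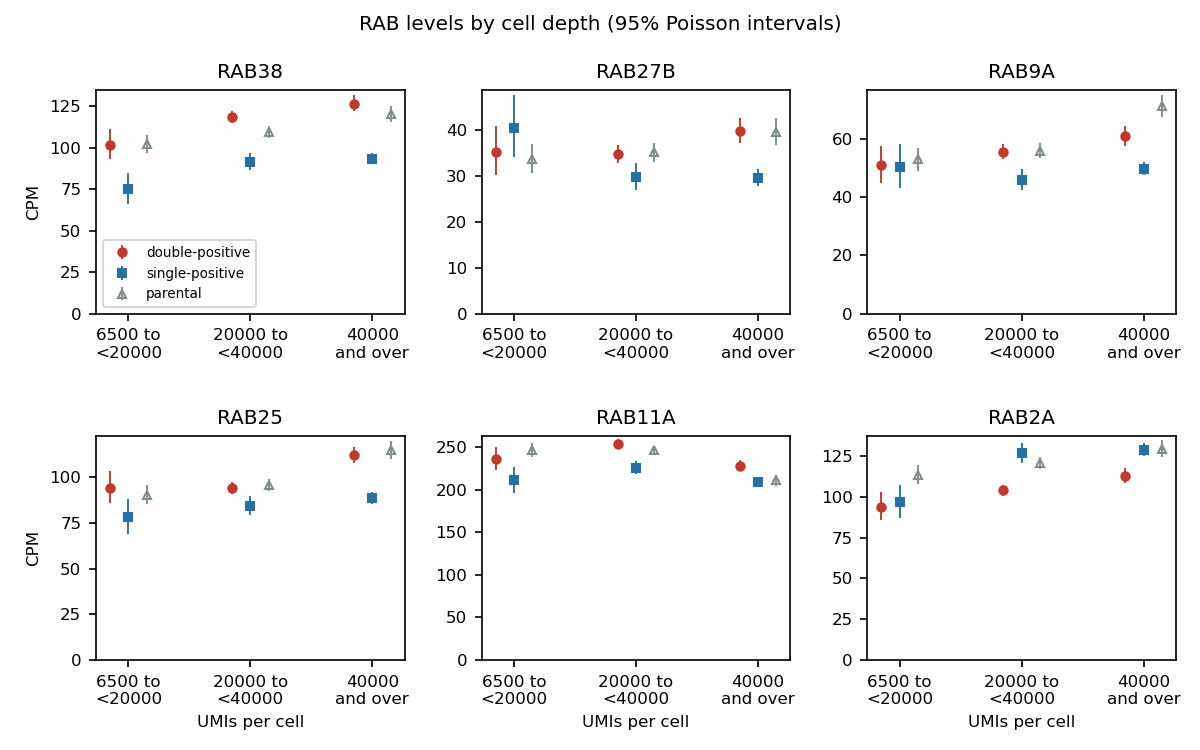
CPM of 6 RAB members (linear axes from 0) in cells of 3 ranges of UMIs per cell, with 95% Poisson intervals, for double-positive (circle), single-positive (square) and parental cells (triangle). RAB38 is lowest in single-positive cells in every range, at 74.8, 91.4 and 93.2 CPM, while the RAB27B order differs in the shallowest range.

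Phases were called with the cells of the 3 libraries scored together and were then compared inside each library. A gene's level difference between libraries therefore does not enter these ratios, while a difference in how phase goes with depth can. Of 46 members, 22 (47.8%) had a lower CPM in G2M in all 3 libraries, beside 31.7% of all genes, and 8 (17.4%) a higher one, beside 36.4%. At 1.2-fold in all 3 libraries, 5 were lower, beside a background of 8.39%, and 1 was higher, beside 10.8%. The members' median log2 ratio of G2M over G1 was −0.14 in double-positive, −0.09 in single-positive and −0.10 in parental cells, beside 0.01, 0.02 and 0.02 for all genes. G2M cells were deeper, with median UMIs of 34648 against 26412 in G1 in double-positive, 41631 against 36034 in single-positive and 28199.5 against 20776 in parental cells, and the part of depth was not tested.

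RAB9A and RAB27B were the abundant members among the lower ones. RAB9A had 48.4 CPM in G2M and 68.3 in G1 of double-positive cells, 39.7 and 61.8 in single-positive and 50.8 and 71.8 in parental cells, log2 ratios of −0.50, −0.64 and −0.50. RAB27B had 31.5 and 44.8 CPM in double-positive, 25.1 and 39.1 in single-positive and 29.6 and 43.9 in parental cells, log2 ratios of −0.51, −0.64 and −0.57. Each had intervals clear of 0 in the 3 libraries. RAB17, RAB4B and RAB3D, all under 10 CPM, were the other lower members. RAB27A, the paralog of RAB27B, was the member that was higher, with 10.8 CPM in G2M and 8.22 in G1 of double-positive, 10.1 and 7.9999 in single-positive and 10.7 and 7.72 in parental cells.

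RAB7A had log2 ratios of −0.25 in double-positive, −0.16 in single-positive and −0.20 in parental cells, and the late endosome sum had −0.29 (−0.34 to −0.25), −0.23 (−0.28 to −0.18) and −0.25 (−0.30 to −0.21) in the same order. The early endosome sum differed less, at −0.08 in double-positive, −0.09 in single-positive and 0.02 in parental cells, and the recycling sum at −0.04, −0.09 and −0.12 in the same order. RAB38 was flat between phases, at −0.03 in double-positive, 0.06 in single-positive and 0.05 in parental cells, and within G1 cells alone its double-positive over single-positive ratio was 0.45. RAB9A in G1 cells alone had a ratio of 0.14 for double-positive over single-positive.

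**Figure D5:**
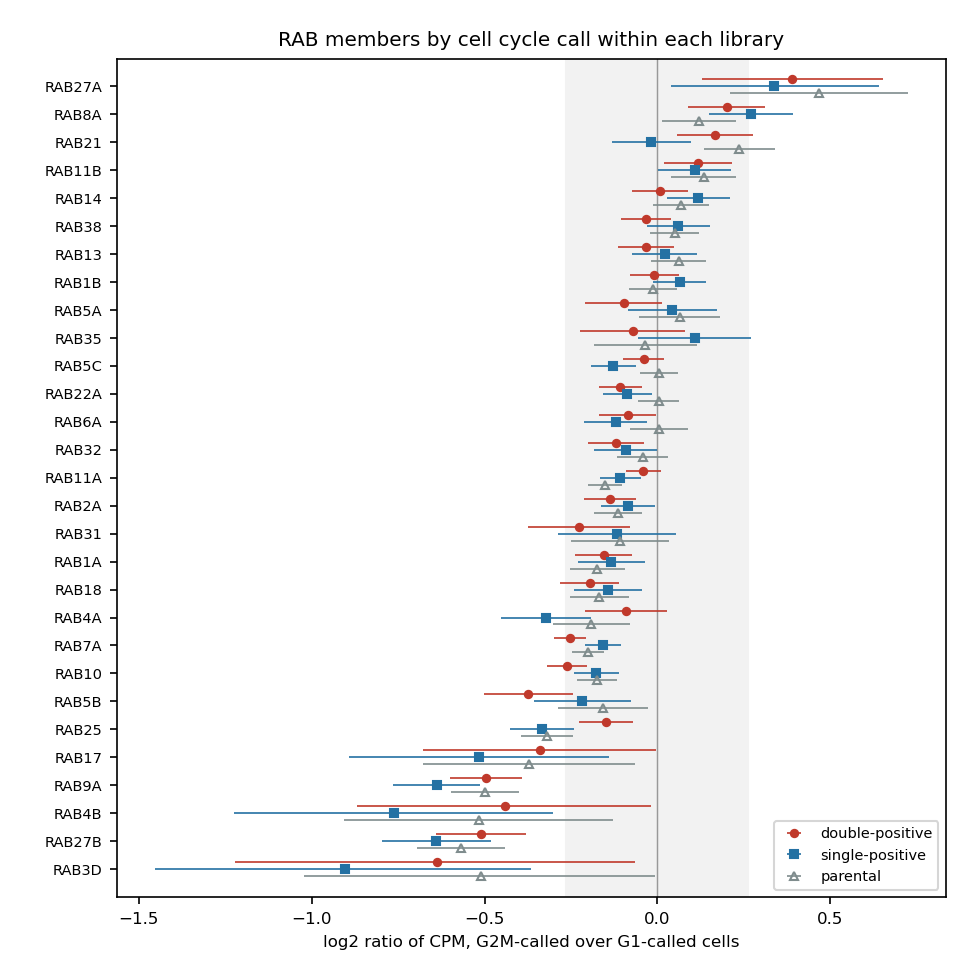
Log2 ratio of CPM in G2M-called over G1-called cells of the same library, with 95% counting intervals, for members averaging 20 CPM or more or passing 1.2-fold in all libraries, in double-positive (circle), single-positive (square) and parental cells (triangle). RAB9A and RAB27B lie near −0.5 to −0.64 in each library and RAB27A near 0.34 to 0.47, with the band within 1.2-fold in grey.

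Spread between cells was measured on cells thinned to 6500 UMIs as the variance over the mean (Fano factor), set beside the median of genes of like mean. RAB38 was more uneven than those genes, with 1.26 against 1.11 in double-positive, 1.16 against 1.08 in single-positive and 1.27 against 1.11 in parental cells. RAB27B had 1.16 in double-positive, 1.11 in single-positive and 1.11 in parental cells, against 1.05, 1.04 and 1.05. RAB1B was more even, with 1.01 in double-positive, 0.951 in single-positive and 1.05 in parental cells, against 1.12, 1.12 and 1.11. Endosomal members lay on both sides. RAB7A had 1.14, 1.15 and 1.14 against 1.19, 1.204 and 1.204, and RAB11A 1.13, 1.04 and 1.18 against 1.18, 1.16 and 1.198, in the same order. RAB25 had 1.11 in double-positive, 1.108 in single-positive and 1.16 in parental cells, against 1.099, 1.083 and 1.098, and RAB9A 1.16, 1.06 and 1.14 against 1.07, 1.05 and 1.06.

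The machinery that loads, carries and receives RABs was read from 8 lists. Of 7 measured genes in the GDP dissociation and prenylation list, 0 were past 1.2-fold in any of the 3 comparisons. Of all genes, 71.6% also stayed within 1.2-fold in all 3. GDI2, a GDP dissociation inhibitor that carries RABs between membranes, had 171 CPM in double-positive, 191 in single-positive and 165 in parental cells, with log2 ratios of −0.16 (−0.20 to −0.12) for double-positive over single-positive and 0.22 (0.18 to 0.26) for single-positive over parental. RABGGTB, a subunit of the RAB prenyltransferase, ran the other way with 89.3 CPM in double-positive, 77.5 in single-positive and 89.5 in parental cells. RABIF, a RAB-interacting factor, had 39.7 CPM in double-positive, 35.8 in single-positive and 39.4 in parental cells. Of these named genes, GDI2 was highest, and RABGGTB and RABIF lowest, in single-positive cells.

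RAB3IP (Rabin8, the exchange factor of RAB8) had the largest ratio of the partners named, with 25.1 CPM in double-positive, 18.1 in single-positive and 22.6 in parental cells. Its log2 ratios were 0.48 (0.36 to 0.60) for double-positive over single-positive and −0.32 (−0.44 to −0.20) for single-positive over parental. RAB3IP is an exchange factor placed in the RAB3 and RAB27 effector list. It was the 1 of 11 measured genes of that list past 1.2-fold upward between sorted populations, beside 4.73% of all genes. None was past it downward, beside 10.1%. UNC13D, a RAB27 effector in granule release, had 37.1 CPM in double-positive, 41.1 in single-positive and 32.2 in parental cells, a single-positive over parental log2 ratio of 0.35 (0.27 to 0.44). In that comparison 2 of the 11 genes were at least 1.2-fold higher, beside 12.3% of all genes, and 1 was lower, beside 4.85%.

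Of 14 RAB11 effector and recycling genes, 2 were at least 1.2-fold lower in double-positive than in single-positive cells, beside 10.1% of all genes, and the median log2 ratio of the 14 was −0.11, beside −0.03 for all genes. The exocyst, which tethers recycling vesicles, had 0 of 9 genes past 1.2-fold in that comparison, retromer 0 of 10, the CORVET, HOPS and RAB7 exchange list 0 of 16, and early endosome effectors 0 of 15. Of all genes, 14.8% were past 1.2-fold there in either direction. Over parental cells, 2 of 15 early endosome effectors were past 1.2-fold upward in double-positive cells, beside 6.61% of all genes, and 2 of 15 in single-positive cells, beside 12.3%. In the CORVET, HOPS and RAB7 exchange list 2 of 16 were lower in double-positive than in parental cells, beside 6.22%, among them VPS18 of the tethering core with 11.9 CPM in double-positive, 13.5 in single-positive and 14.3 in parental cells.

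Among cargo receptors that ride these compartments, TFRC, the transferrin receptor recycled through RAB4 and RAB11 endosomes, had 71.8 CPM in double-positive, 81.0 in single-positive and 60.2 in parental cells, with a single-positive over parental log2 ratio of 0.43 (0.36 to 0.49). LRP1, an endocytic scavenger receptor, had 11.95 CPM in double-positive, 10.01 in single-positive and 9.60 in parental cells, with 0.32 (0.16 to 0.47) for double-positive over parental. IGF2R, the receptor that sorts lysosomal enzymes, had 39.7 CPM in double-positive, 44.3 in single-positive and 40.95 in parental cells. Of the 6 receptors measured, 1 was at least 1.2-fold higher in single-positive than in parental cells (TFRC), beside 12.3% of all genes. Another was higher in double-positive than in parental cells (LRP1), beside 6.61%. None was at least 1.2-fold lower. The shares of all genes lower were 10.1% in double-positive against single-positive, 4.85% in single-positive against parental and 6.22% in double-positive against parental.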

How the data were processed

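Droplet libraries of double-positive, single-positive and parental BxPC-3 cells, 1 each, were analysed. The deposited matrices hold raw counts of UMIs per gene and barcode, written by Cell Ranger per the file headers. Build GRCh38, Seurat 4.0.6 and Cell Ranger 4.0.0 appear in the submitters' processing notes. No annotation release was given in the sources used here. Each matrix lists 737280 barcodes, empty droplets included, and 33694 features. GENCODE 29 was matched by gene identifier for 33132 features and all 62 RAB rows.

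UMIs were summed over barcodes with at least 6500 UMIs, which held 97.7% to 98.0% of all UMIs, and scaled to CPM. Log2 ratios carry exact conditional binomial intervals, CPM exact Poisson intervals and shares exact Clopper-Pearson intervals. With 1 library per population no p-value was computed. Sizes of 1.2-fold and 1.5-fold were counted over members and over all genes at the same floor. No doublet caller was run and doublets were kept, because the sort itself selected cells with EGFP and mCherry. Molecules between droplets (free RNA) were not subtracted.

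Phases were scored with 43 S and 54 G2M genes on cells thinned at random to 6500 UMIs. The code for intervals and counts was run on simulated libraries with Poisson counts and planted changes larger than 1.2-fold. These had no added spread between cells or libraries, so they check the code and not how far real libraries vary. Values were given for members averaging 20 CPM or more, the 3 highest and 3 lowest ratios per comparison at 5 CPM, the RAB3, RAB4, RAB5, RAB7, RAB11 with RAB25 and RAB27 paralogs, members past 1.2-fold between phases in every library, and up to 3 genes per partner list at 10 CPM. Some partner genes are not reported here. Members and lists were chosen with earlier results of these data known. Alternatives changed scaling, weight, depth, phase, mitochondrial filter, cell call, floor and compartment lists. Tools were scanpy 1.11.5, Biopython 1.88, scipy 1.17.1, matplotlib 3.10.9, pandas 2.3.3 and numpy 2.4.6 in Python 3.11.15.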

Additional observations from a re-analysis of the deposited data

Results flagged for a closer look

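RAB UMIs were also present in barcodes that did not count as cells, which no comparison above uses. Barcodes under 6500 UMIs held 3399 RAB UMIs in the double-positive library, 2765 in the single-positive library and 3060 in the parental library. These counts are over all 62 matching rows. Per 1000000 UMIs of those barcodes this was 2498 CPM (2414 to 2583), 2344 CPM (2258 to 2433) and 2310 CPM (2229 to 2393), below the 2601, 2535 and 2606 CPM in cells of the same libraries. The values in cells are over the 46 members alone. Barcodes of 100 UMIs or fewer, a part of those under 6500, lay above cells, as given at the end. These barcodes held 1360815, 1179415 and 1324810 UMIs in the same order, a small part of each library.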

How the results depend on the processing

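The median-of-ratios scaling and the other cell call (99th percentile of UMIs of the top 3000 barcodes divided by 10) left all named members of double-positive against single-positive cells inside the counting interval. Values outside it follow as log2 ratios of summed CPM, and the cause was not tested. With median-of-ratios scaling, recycling was 0.12 in double-positive over single-positive, −0.12 in single-positive over parental and −0.0027 in double-positive over parental, early −0.063 and −0.051 over parental in single-positive and double-positive cells, and late −0.079 in single-positive over parental. With cells thinned to 6500 UMIs, early was −0.087 and late −0.035 in double-positive over single-positive, early 0.042 in single-positive over parental, and late −0.066 in double-positive over parental. In the shared UMI range (701, 142 and 628 cells in double-positive, single-positive and parental), early was −0.12, recycling 0.0055 and late −0.031 in double-positive over single-positive, early 0.023, recycling −0.0019 and late 0.048 in single-positive over parental, and early −0.0996 and late 0.017 in double-positive over parental. In G1 cells, recycling was 0.056 in double-positive over single-positive, early 0.051 in single-positive over parental, and early 0.035 and recycling −0.017 in double-positive over parental. Without cells under 0.5% mitochondrial UMIs, early was −0.039 in double-positive over single-positive and 0.014 in single-positive over parental. With wider compartment lists, late was 0.066 in double-positive over single-positive and −0.104 in single-positive over parental.

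The members at least 1.2-fold apart numbered 8, 5 and 4 in double-positive against single-positive, single-positive against parental and double-positive against parental (17.4%, 10.9% and 8.7%, beside 14.8%, 17.1% and 12.8% of all genes). They numbered 14, 15 and 9 after thinning (30.4%, 32.6% and 19.6%, beside 29.5%, 30.6% and 22.0% of all genes) and 19, 10 and 10 at shared depth (41.3%, 21.7% and 21.7%, beside 36.5%, 36.95% and 21.8%). At a floor of 10 CPM it was 2, 2 and 1 of 28, beside 7.45%, 10.3% and 6.15% of genes. With no floor it was 15, 12 and 11, and the shares of all genes are not given here. Fewer UMIs enter after thinning and at shared depth, and lower genes with no floor. In G1 cells it was 11, 7 and 7 (23.9%, 15.2% and 15.2%, beside 21.5%, 20.6% and 19.5% of all genes). Between phases the count of 6 was 2 at a floor of 10 CPM and 9 with phases scored on unthinned cells. The shares of all genes in those phase settings are not given here. The RAB3B ratio of double-positive over single-positive turned to 0.43 in the shared UMI range and that of RAB3D to 0.41 with thinned cells. Of 35 named members in double-positive against single-positive, single-positive against parental and double-positive against parental, 12, 16 and 14 left their counting interval after thinning (RAB3D not counted in the first), 19, 23 and 11 at shared depth (RAB3B not counted in the first), 10, 7 and 11 in G1 cells, 1, 6 and 10 without cells of low mitochondrial share, and 0, 7 and 0 with median-of-ratios scaling. No paired analysis was possible because each population has 1 library. Depth limits the members under 10 CPM most: RAB3B rests on 37 UMIs in double-positive cells, and the count of 142 single-positive cells limits the shared range.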

Other observations

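Rows under the floor show which RABs were hardly captured in these libraries. Exon overlaps with other features were examined for the members only, not for these rows. RAB3A, of neuronal exocytosis, had 46 UMIs in double-positive, 36 in single-positive and 58 in parental cells, and RAB37, of secretory granules, had 22, 19 and 48 UMIs, or 0.360, 0.377 and 0.753 CPM. RAB37 was lower in both sorted populations than in parental cells, with log2 ratios of −1.06 (−1.86 to −0.31) in double-positive and −0.999 (−1.85 to −0.21) in single-positive cells, and was named after its values were seen. RAB15, of endosomal recycling in neurons, had 44, 27 and 44 UMIs. The neuronal Golgi paralog RAB6B had 11, 21 and 19 UMIs, while its paralog RAB6A held 5587, 4501 and 5217 UMIs.

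The late endosome paralog RAB9B had 2, 2 and 0 UMIs in double-positive, single-positive and parental cells, so RAB9A held nearly all UMIs of that pair. RAB3C and RAB41 had 0 UMIs in every library, which allows up to 0.0470 CPM in the deepest (3 counts). Near-empty barcodes of 100 UMIs or fewer held the RAB members at 2877 CPM in double-positive, 2707 in single-positive and 2653 in parental libraries, beside 2601, 2535 and 2606 CPM in cells.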
